A study of Arabidopsis thaliana with 16 samples.

Results

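The chloroplast-encoded genes described here are the probe sets of the *Arabidopsis* ATH1 array whose single annotated gene lies in the plastid genome. There were 69 such probe sets among the 22746 tested, each for a different gene, while the RefSeq annotation of TAIR10.1 lists 78 protein-coding plastid genes by symbol. They comprised 7 probe sets for photosystem I and its assembly, 15 for photosystem II, 10 for the NDH complex, 6 for the cytochrome b6f complex, 6 for the ATP synthase, 1 for the large subunit of Rubisco, 4 for the plastid RNA polymerase, 15 for the ribosome and 5 for other proteins. Mitochondrial genes were left out of this set. A further 8 probe sets matched a gene that the inverted repeat holds as 2 copies, ndhB among them, and these are described apart from the 69. No filter on low values was applied, and ndhF alone had arrays at or below a signal of 1, which were 2 of its 16.

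The plastid genome of land plants keeps the genes of the reaction centres and other core subunits of the photosynthetic complexes, together with parts of its own transcription and translation machinery, whereas the nucleus supplies the antenna proteins, the small subunit of Rubisco and most regulators. Most plastid genes lie in operons that are read by a bacterial-type polymerase with plastid-encoded core subunits, and a few, such as rpoB and accD, are read mainly by a phage-type polymerase from the nucleus. Long transcripts are then cut and trimmed. Mature plastid mRNAs mostly lack a stable poly(A) tail, and the standard labelling for this array primes on poly(A).

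All samples came from 4-week-old Col-0 wild-type plants, with tissue of at least 8 plants pooled in each and 1 array for each. The tissue label is leaves throughout, but the titles speak of seedlings, and the methods describe the picking of leaves for the feeding experiment only, while the receivers of the volatile experiment were frozen with no organ named. In the volatile experiment, receivers were exposed for 24 h to leafminer-damaged Lima bean plants (2 samples) or to healthy Lima bean plants (2 control samples), and for 48 h to the same sources (3 and 3 samples). In the feeding experiment, 3 samples of plants fed on by larvae of the leafminer *Liriomyza huidobrensis* were compared with 3 samples of healthy plants. Damaged leaves were selected for the fed samples when the larvae had reached the second instar. According to the methods, the volatile experiment ran in glass jars with a flow of filtered air, so its controls differ from the healthy plants by the jar, by exposure to Lima beans and possibly by the organs sampled. The methods call the replicates independent without saying whether they were grown separately, and p-values then measure only the spread between these samples, which may be technical. A leaf sample with fewer chloroplasts and a sample with less RNA in each chloroplast cannot be told apart on such arrays.

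Values are log2 of the deposited MAS5 signal with no further scaling, and differences are log2 fold changes from limma, fitted to the 6 groups jointly. A probe set was called when limma's adjusted p was at most 0.05 and the change at least 2-fold. Median signals of the 16 arrays lay between 19.2 and 30.3, and signals at or below 1 made up 9.62% to 13.3% of an array. Over all probe sets the median log2 change was 0.31 at 24 h, 0.07 at 48 h, 0.14 with feeding and 0.18 between healthy plants and the controls of the volatile experiment, and changes of the chloroplast-encoded genes are therefore also given relative to these shifts. RCA, the nuclear gene of Rubisco activase, had group means between 11.3 and 12.2 on the log2 scale, as any green tissue could give. The root and seedling gene PYK10 had group means of 9.80 to 10.38 in the volatile experiment, 9.58 in fed and 6.40 in healthy plants. It was the only 1 of 5 root markers with a named probe set. As it also differed between fed and healthy plants, it cannot tell which organs each group held.

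The 16 arrays fell into separate levels for the chloroplast-encoded genes. The median log2 signal of the 69 probe sets was 7.25 and 7.0 in the 24 h controls and 7.39, 7.31 and 7.66 in the 48 h controls. It was 8.33 and 5.96 in the 24 h volatile samples and 7.03, 7.09 and 6.09 in the 48 h volatile samples. It was 9.68, 9.19 and 9.62 on the healthy arrays and 9.05, 9.24 and 9.52 on the fed arrays. All 6 arrays of the feeding experiment thus lay above all 10 arrays of the volatile experiment, the 24 h volatile arrays lay on opposite sides of their controls, and the third 48 h volatile array lay below the other two.

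**Figure D1:**
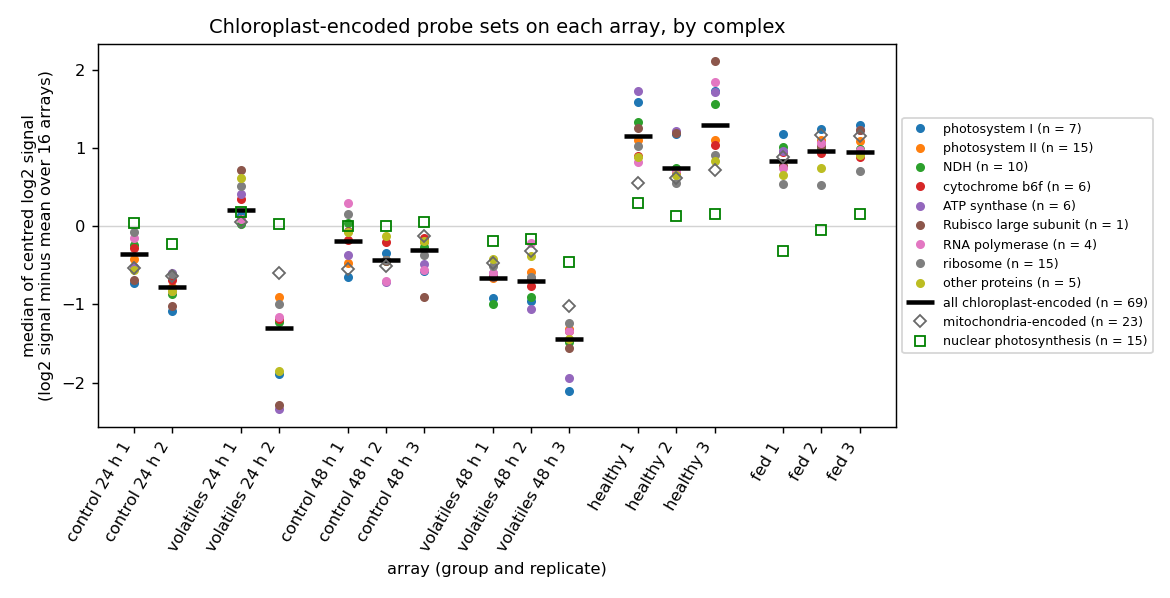
Median centred log2 signal (log2 signal of a probe set minus its mean over the 16 arrays) on each array, as points for the probe sets of each complex, black bars for all 69 chloroplast-encoded probe sets, diamonds for 23 mitochondria-encoded and squares for 15 nuclear photosynthesis probe sets. The chloroplast-encoded median lay between 0.74 and 1.29 on the arrays of the feeding experiment and between -1.44 and 0.21 on those of the volatile experiment, where 24 h volatile array 2 and 48 h volatile array 3 were lowest.

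The 24 h volatile samples differed from each other far more in these genes than in the rest of the array. The second sample was lower than the first in 67 of the 69 probe sets, with a median difference of -1.53, against -0.12 over all probe sets and -0.60 over the mitochondria-encoded ones. The differences ranged from -3.83 for psbN, a small protein needed to assemble photosystem II, to 0.67 for petD, subunit IV of the cytochrome b6f complex. The median SD of the chloroplast-encoded probe sets was 1.09 between the 24 h volatile samples, and lay between 0.15 and 0.48 in the other 5 groups. Over all probe sets the corresponding SD of the 24 h volatile samples was 0.18. The control probe set for 25S rRNA read 10.35 on the first and 9.62 on the second 24 h volatile array and 10.00 and 9.66 on the control arrays, and its part in the difference was not tested.

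rbcL, which encodes the large subunit of Rubisco, had a log2 signal of 6.72 and 6.39 in the 24 h controls and of 8.13 and 5.12 in the volatile samples. The volatile samples lay above and below both controls, and the difference of the means was 0.07 (SE 0.71, adjusted p = 1.0). atpA, the alpha subunit of the ATP synthase, read 8.42 and 8.51 in the controls and 9.44 and 6.10 in the volatile samples. psbA, which encodes the D1 protein of photosystem II, read 7.25 and 7.44 in the controls and 7.88 and 7.18 in the volatile samples. In each of these genes the first volatile sample was the highest of the 4 samples and the second the lowest.

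At 24 h limma called 0 of the 69 in either direction, where it called 0.0176% of all probe sets, 0.0044% as higher and 0.0132% as lower. In 3 of the 69 both volatile samples lay below both controls and in 4 above, against 5.33% and 47.1% of all probe sets, and 1 had an unadjusted p under 0.05 where 12.6% of all did. That was rpl33, a protein of the large ribosomal subunit named here after its values were seen, at 0.90 (SE 0.31, adjusted p = 0.36). The 69 changes ran from -1.04 for psbN to 1.09 for ccsA, a protein of cytochrome c assembly, with a median of 0.16. Relative to the shift of all probe sets this median was -0.14, and it turned to -0.15 after quantile normalization or median scaling, where 53 and 50 probe sets were below 0 instead of 22. Over all probe sets 19.9% were below 0. The median was -0.62 without the first volatile sample and 0.87 without the second, so its sign depended on which of the 2 samples was used.

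At 48 h nearly all chloroplast-encoded genes read lower in the plants exposed to volatiles of damaged Lima beans, although few passed the test alone. The log2 change was below 0 in 68 of the 69 probe sets, against 40.3% of all probe sets, and the median was -0.63, or -0.71 relative to the shift of all probe sets. In 36 of the 69 every volatile array lay below every control array, against 4.19% of all probe sets, and in none did every volatile array lie above, against 8.82%. The 69 are not independent measurements, as they also moved together between samples of the same group. The second healthy sample was lower than the first in 68, by a median of -0.42, and the second 24 h control in 63, by -0.31. The pooled SD within groups of the chloroplast-encoded array median was 0.74 over the 16 arrays. Limma called 2 of the 69 as lower, ndhG and ndhD, where it called 0.765% of all probe sets in either direction and 0.207% as lower. After quantile normalization it called 4, with psaC and rps14 added, against 1.39% of all probe sets. At an unadjusted p under 0.05 there were 15, all lower, against 13.2% of all probe sets. The single value above 0 was 0.09 for rpl22, a protein of the large ribosomal subunit, which was -0.01 after median scaling.

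**Figure D2:**
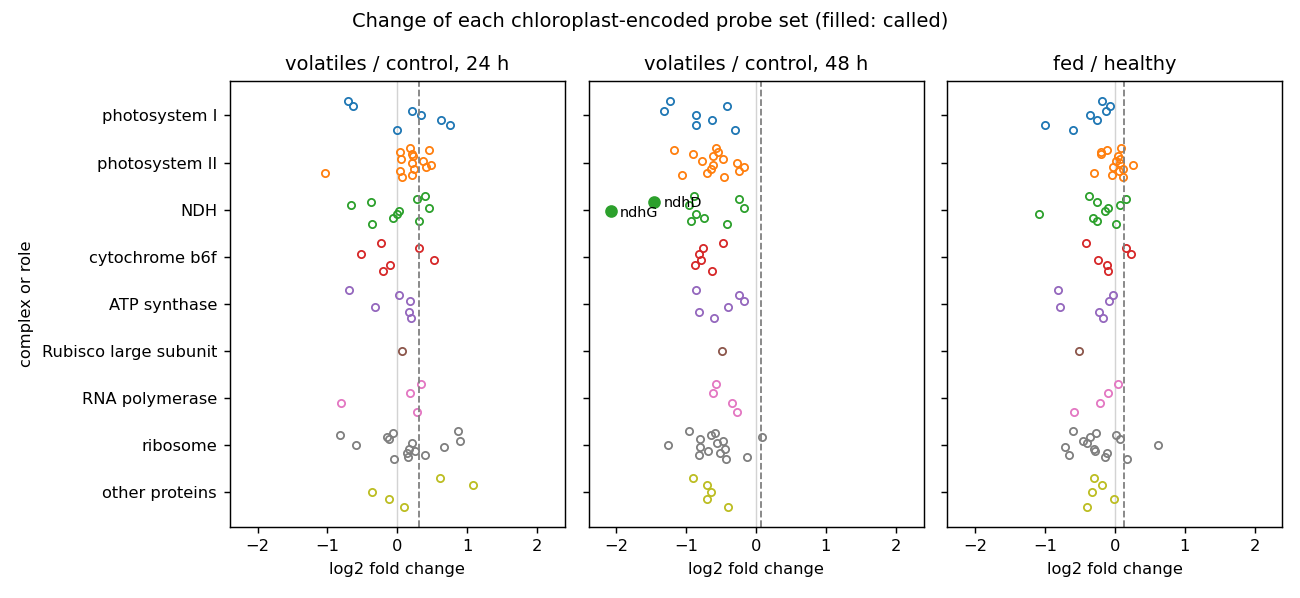
Log2 fold change (x axis) of each of the 69 chloroplast-encoded probe sets by complex or role (y axis), for volatiles against control at 24 h and 48 h and for fed against healthy plants, with filled points for called probe sets and a dashed line at the median of all probe sets. At 48 h 68 of 69 points lie below 0, and the called ones are ndhG at -2.08 and ndhD at -1.46.

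The NDH complex, which passes electrons from ferredoxin to plastoquinone in cyclic flow around photosystem I, held both calls. ndhG, a membrane subunit, had a log2 signal of 5.79, 4.87 and 5.41 in the 48 h controls and of 3.65, 3.59 and 2.57 in the volatile samples. ndhD, a further membrane subunit, read 6.28, 5.32 and 6.08 in the controls and 4.53, 4.89 and 3.89 in the volatile samples. In both genes all 3 volatile samples lay below all 3 controls, with the third volatile sample lowest. ndhG fell by 2.08 (SE 0.40, adjusted p = 0.032), which is 4.24-fold, and ndhD by 1.46 (SE 0.30, adjusted p = 0.046), or 2.75-fold. Both calls rested on the spread shared with the other groups: with the 6 arrays of the comparison fitted alone, adjusted p was 0.30 and 0.38. Leaving out 1 array at a time ended the call of ndhG in 5 of 6 cases, with values from -2.33 to -1.74 (-1.74 without the third volatile sample), and that of ndhD in 4 of 6, with values from -1.74 to -1.18 (-1.18 without that sample). With log2 of the value plus 16, ndhG was at -1.14 (adjusted p = 0.017), and ndhD at -0.998 (adjusted p = 0.026), just under 2-fold.

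All 10 NDH probe sets were below 0 at 48 h, with a median of -0.88, and in 6 of them the groups did not overlap. ndhE, a membrane subunit, changed by -0.97 (SE 0.33, adjusted p = 0.21) and ndhI, an iron-sulfur subunit, by -0.75 (SE 0.33, adjusted p = 0.35). ndhC, at -0.24, and ndhF, at -0.17, were nearest 0. Of the nuclear subunits of the complex, 3 of 17 had a named probe set, and at 48 h NDHL was at -0.36, NDHN at 0.12 and NDHS at -0.43, with none called.

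Photosystem I had a median of -0.86 over 7 probe sets, of which 5 did not overlap. psaC, the iron-sulfur protein that reduces ferredoxin, read 4.31, 3.77 and 4.12 in the controls and 2.75, 3.20 and 2.29 in the volatile samples. The groups were apart, and the change of -1.32 (SE 0.34, adjusted p = 0.098) passed the threshold after quantile normalization (-1.39, adjusted p = 0.032), after median scaling (-1.42, adjusted p = 0.035) and among the upper 60% of probe sets by signal (adjusted p = 0.030). With log2 of the value plus 16 it was at -0.52 (adjusted p = 0.20), with the 6 arrays fitted alone adjusted p was 0.36, and with a replicate block 0.23. psaA, a core protein of the reaction centre named after its values were seen, changed by -1.24 (SE 0.64, adjusted p = 0.45), and its partner psaB by -0.42 (SE 0.42, adjusted p = 0.75). The assembly factors ycf3 and ycf4 were at -0.86 and -0.30.

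Photosystem II had a median of -0.62 over 15 probe sets, with none called and 7 that did not overlap. psbB, the core antenna protein CP47, was at -1.18 (SE 0.61, adjusted p = 0.45), and at -0.43 (adjusted p = 0.77) without the third volatile sample. It read 6.45, 6.29 and 6.23 in the controls and 5.78, 6.02 and 3.64 in the volatile samples, without overlap. psbA read 7.09, 7.06 and 7.59 in the controls and 6.61, 6.92 and 6.48 in the volatile samples, so that its groups were apart at a difference of -0.58 (SE 0.25, adjusted p = 0.34). psbK, a small subunit, was nearest 0 at -0.17.

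The cytochrome b6f complex had a median of -0.78 over 6 probe sets, of which 5 did not overlap, from -0.87 for petL, a small subunit, to -0.47 for petA, cytochrome f. The ATP synthase had a median of -0.50 over 6 probe sets, from -0.86 for atpA to -0.17 for atpE, the epsilon subunit. rbcL read 7.35, 6.96 and 6.50 in the controls and 6.75, 6.74 and 5.85 in the volatile samples. Its groups overlapped, and the change was -0.49 (SE 0.58, adjusted p = 0.80).

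Of the genes of plastid gene expression, the 4 polymerase genes were all below 0, from -0.62 for rpoB, the beta subunit, to -0.27 for rpoC2, the beta'' subunit, and all of them overlapped between the groups. Of the 15 ribosomal genes 14 were below 0 with a median of -0.58, and 6 did not overlap. rps14, a protein of the small subunit, read 3.96, 3.09 and 3.64 in the controls and 2.24, 2.44 and 2.23 in the volatile samples. It was lower in each volatile sample than in each control, by -1.26 (SE 0.32, adjusted p = 0.096), and passed after quantile normalization (-1.29, adjusted p = 0.049) and median scaling (-1.36, adjusted p = 0.046). With log2 of the value plus 16, which damps low signals, it was at -0.42 (adjusted p = 0.11), and adjusted p over its alternatives ran from 0.046 to 0.34, the latter with the 6 arrays fitted alone. Among the other proteins, accD, a subunit of acetyl-CoA carboxylase, was at -0.91, clpP, a protease subunit, at -0.70 and matK, a splicing factor, at -0.40.

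**Figure D3:**
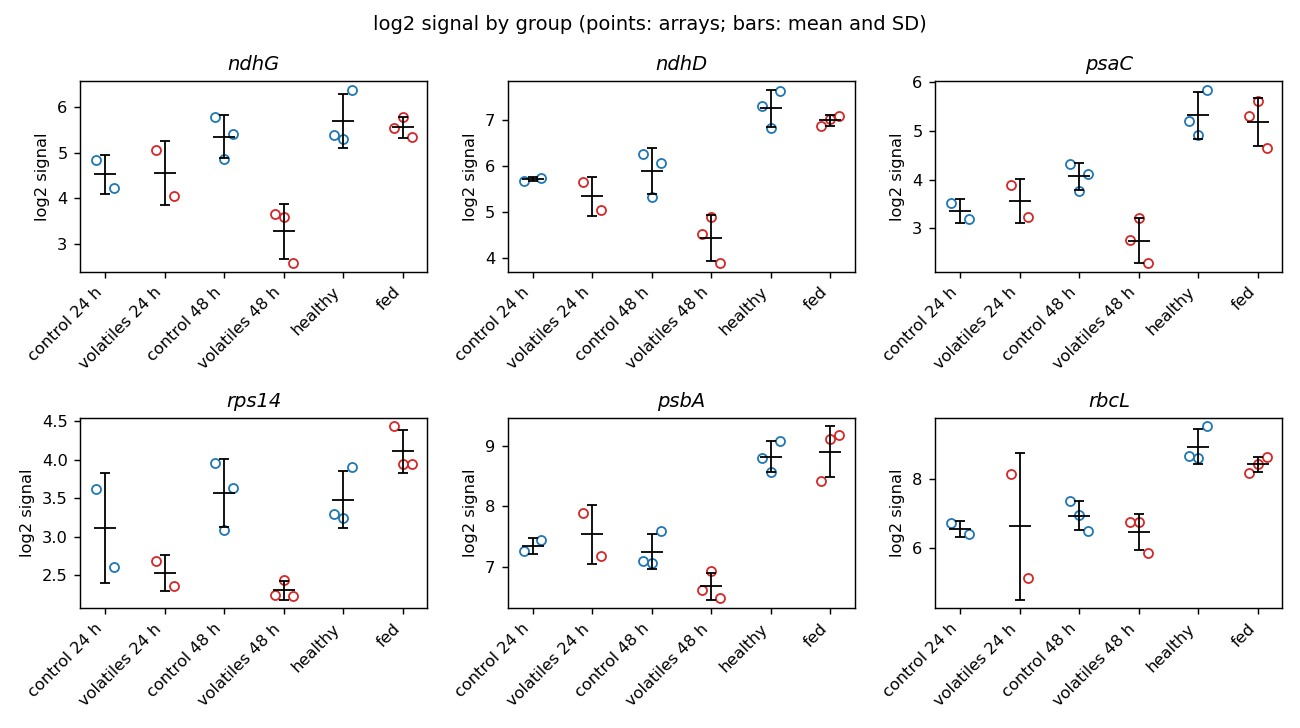
Log2 signal (y axis) of 6 chloroplast-encoded genes in the 6 groups (x axis), with a point for each array and bars for the mean and SD of the 2 or 3 arrays of a group. ndhG, ndhD, psaC, rps14 and psbA have all 48 h volatile arrays below all 48 h control arrays, rbcL overlaps, and the 24 h volatile arrays of rbcL read 8.13 and 5.12.

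The third 48 h volatile sample was lower than each of the others in 66 of the 69 probe sets, by a median of -0.74 and -0.80, while over all probe sets the medians were -0.24 and -0.48. The control probe set for 25S rRNA moved with it, at 9.13 on that array, the lowest of the 16, and at 9.85 and 9.84 on the others of its group. Its part in the result was not tested. Without it the median change of the chloroplast-encoded genes was -0.37, with 64 of 69 below 0 and 37 of 69 with groups that did not overlap, against 0.19 for the median of all probe sets and 4.89% with all remaining volatile arrays lower. Over the 8 probe sets with 2 copies in the genome, all 8 were below 0 with a median of -0.64, and ndhB was at -0.97 (adjusted p = 0.10). The mitochondria-encoded set was at a median of -0.19 with 20 of 23 below 0. The nuclear photosynthesis lists, of which only 15 genes had a named probe set, had a median of -0.36 with 12 of 15 below 0, and the single call among them was LHCB4.3, a minor antenna protein, higher by 1.78 (adjusted p = 0.036). Those 15 were 2 of 18 listed genes for photosystem I, 6 of 27 for photosystem II and 3 of 12 for electron transport and ATP synthase. The others were 3 of 17 for NDH and, for Rubisco, 1 of 5, which was RCA. Most nuclear photosynthesis genes were thus not covered. Of the 13 genes of the senescence list 3 had a named probe set. SAG29 was at 3.91 (adjusted p = 0.10), WRKY6 at 0.98 and WRKY53 at 0.60 at 48 h, with none called. SAG29 read 0.0, 3.45 and 0.0 in the 48 h controls, where 0.0 is the lower limit set for signals. Among the control probe sets for RNA integrity, the 3' minus 5' log2 difference of GAPDH was 0.03 to 0.17 in the volatile samples and 0.33 to 0.74 in the controls, and that of a second actin control 1.06 to 1.12 and 1.3 to 1.59, both without overlap. That of the first actin control was 4.15 to 4.37 and 3.66 to 4.72, with overlap. The part of these in the result was not tested.

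The difference between the responses at 48 h and at 24 h was below 0 in 64 of 69 probe sets, against 66.4% of all probe sets, with a median of -0.67, or -0.45 relative to all probe sets. Limma called 0 of the 69, as against 0.022% of all probe sets, and 8 had an unadjusted p under 0.05, against 7.67% of all, among which ndhG was at -2.11 (SE 0.63, adjusted p = 0.50). Without the second 24 h volatile sample the median was -1.46 and 4 were called lower: ccsA, petG, accD and atpH. Between the control groups themselves, 48 h against 24 h, 0 of 69 were called, where 0.0132% of all probe sets were, 0.0044% as higher and 0.00879% as lower, and 2 had an unadjusted p under 0.05, against 6.92% of all. The change between the control groups was below 0 in 11 of 69, against 30.8% of all probe sets, with a median of 0.27. All 48 h controls lay above all 24 h controls in 22 and below in 1, against 17.8% and 4.32% of all.

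ccsA, named after its values were seen, had the largest difference between the control groups, at 2.32 (SE 0.58, adjusted p = 0.50). It read 8.22 and 7.54 in the 24 h controls and 10.39 and 7.55 in the 24 h volatile samples. It read 10.20 ± 0.11 (SD, n = 3) in the 48 h controls, 9.78, 9.45 and 9.28 in the 48 h volatile samples and 9.57 to 10.40 on the arrays of the feeding experiment. The low values thus lay on 3 of the 4 arrays of the 24 h time.

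With direct feeding no chloroplast-encoded gene passed the test in the joint fit, while many other genes did. That fit estimates the spread of each gene over all 6 groups. The median SD of the 69 was 1.09 in the 24 h volatile samples, 0.15 in fed and 0.35 in healthy samples. Over all probe sets these were 0.18, 0.24 and 0.33. The 24 h volatile samples thus widened the SE of these genes here and in the other comparisons. Their counts of calls are therefore not on the same footing as those of all probe sets. Limma called 0 of the 69, where it called 19.2% of all probe sets, 12.8% as higher and 6.49% as lower, and 0 had an unadjusted p under 0.05, where 38.6% of all did. The log2 change was below 0 in 50 of the 69, against 40.1% of all probe sets, with a median of -0.18, or -0.31 relative to the shift of all probe sets. After quantile normalization 67 were below 0 with a median of -0.45, 13 had an unadjusted p under 0.05 and 1, ndhH, was called lower, where 20.3% of all probe sets were called. The 3' minus 5' log2 difference of the second actin control was 0.81 to 0.98 in fed and 1.12 to 1.32 in healthy plants, and that of ubiquitin 0.88 to 0.95 and 1.2 to 1.26, both without overlap, and their part in these values was not tested. Every fed array lay below every healthy array in 12 of the 69, against 15.3% of all probe sets, and above in 2, rps14 and rps4, against 27.1%.

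ndhH, a subunit of the arm of the NDH complex outside the membrane, had a log2 signal of 7.35, 6.76 and 8.10 in healthy plants and of 6.17, 6.27 and 6.50 in fed plants. All 3 fed samples were below all healthy ones, by -1.09 (SE 0.54, adjusted p = 0.16). ycf3 read 8.12, 7.96 and 8.71 in healthy and 7.34, 7.06 and 7.37 in fed plants, also without overlap, at -1.01 (SE 0.63, adjusted p = 0.28), and was called when the 6 arrays were fitted alone (adjusted p = 0.028). atpA, at -0.81, rps15, at -0.71, and rpoC2, at -0.59, were likewise lower on each fed array with none called. rps14, at 0.62 (SE 0.32, adjusted p = 0.18), had the highest value and read 3.30, 3.25 and 3.90 in healthy and 4.43, 3.94 and 3.94 in fed plants.

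By complex, the medians with feeding were -0.51 for rbcL, -0.30 for the other proteins, -0.28 for the ribosome, -0.26 for photosystem I, -0.21 for the ATP synthase, -0.20 for NDH, -0.16 for the polymerase and -0.11 for cytochrome b6f. Photosystem II was at 0.04 with 9 of 15 above 0, which turned to -0.26 with 0 of 15 above 0 after quantile normalization. psbA was at 0.09 (SE 0.25, adjusted p = 0.86) and rbcL read 8.67, 8.60 and 9.52 in healthy and 8.18, 8.43 and 8.64 in fed plants, with overlap. Neither gene was separated between the groups.

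Among nuclear genes of the same complexes, NDHN was called lower with feeding at -1.62 and NDHL at -1.23, as was LHCB4.3 at -2.87, and the 15 nuclear photosynthesis probe sets had a median of -0.27 with 3 called lower and none higher. Of the mitochondria-encoded set 21 of 23 were above 0 with a median of 0.45, which was 14 of 23 and 0.22 after quantile normalization, and 3 of 23 were called higher, near the 12.8% of all probe sets: matR, a maturase, at 1.18 (adjusted p = 0.013) and 2 probe sets of nad1, a subunit of the respiratory complex I, at 1.41 and 1.1. The senescence regulators WRKY53 and WRKY6 rose by 3.44 and 2.92 with feeding, and SAG29, the only other gene of that list of 13 with a named probe set, was at -1.29 (adjusted p = 0.40). The 8 chloroplast-encoded probe sets with 2 genomic copies had a median of 0.05, or -0.20 after quantile normalization, with none called.

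The feeding response and the 48 h volatile response, which share no arrays, were compared directly. The experiments were not matched in time or in sampling, as fed samples were damaged leaves selected by larval stage. Their difference was above 0 in 61 of the 69 and below 0 in 8, where 45.8% of all probe sets were below 0, with a median of 0.43, or 0.37 relative to all probe sets. After quantile normalization 18 were below 0 and the median was 0.23. Limma called 2 of the 69, both higher, where it called 14% of all probe sets in either direction, 8.8% as higher and 5.24% as lower: ndhG at 1.95 (SE 0.56, adjusted p = 0.034) and rps14 at 1.88 (SE 0.46, adjusted p = 0.014). At an unadjusted p under 0.05 there were 6 of the 69, against 28.5% of all. ndhG was at -0.14 with feeding and lower by 2.08 with volatiles, and rps14 was at 0.62 with feeding and at -1.26 with volatiles. With log2 of the value plus 16 the difference was 1.03 for ndhG (adjusted p = 0.039) and 0.71 for rps14 (adjusted p = 0.0091), the latter under 2-fold. With quantile normalization or median scaling ndhD was called as well. Across the 69 members the changes at 48 h and with feeding were nearly unrelated, with Pearson's r of 0.02 and Spearman's rho of 0.11, a description over genes that share arrays within each comparison.

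The largest difference in the levels lay between the experiments. In 46 of the 69 probe sets all 6 arrays of the feeding experiment were above all 10 arrays of the volatile experiment, against 5.68% of all probe sets, and in 0 were they all below, against 3.45%. The 46 comprised all 6 genes of the ATP synthase, rbcL, 12 of 15 of photosystem II, 5 of 7 of photosystem I, 6 of 10 of NDH, 4 of 6 of cytochrome b6f, 3 of 4 of the polymerase, 6 of 15 of the ribosome and 3 of 5 others. Without the first 24 h volatile sample the count was 56. Of the mitochondria-encoded set 11 of 23 were placed this way, and of the nuclear photosynthesis lists 1 of 15, which was RCA.

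A comparison of healthy plants with the controls of the volatile experiment (the mean of the 24 h and 48 h controls) was made after these levels had been seen. Limma called 43 of the 69 as higher in healthy plants and 0 as lower, where it called 18.4% of all probe sets in either direction, 12% as higher and 6.46% as lower. The change was below 0 in 2 of the 69, against 38.8% of all probe sets, and all healthy samples lay above all 5 controls in 57, against 20% of all, and below in 0, against 11.2%. At an unadjusted p under 0.05 there were 60, against 42.6% of all, with a median of 1.46, or 1.29 relative to the shift of all probe sets. Quantile normalization left 40 calls and a median of 1.29, and leaving out 1 array at a time gave 37 to 45 calls. Experiment, jar, exposure to Lima beans and the organs sampled cannot be told apart in this comparison.

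psbD, the D2 protein of photosystem II, and psbT, a small subunit, both named after their values were seen, stood at the top. psbD read 6.06 and 5.90 in the 24 h controls, 6.92, 6.27 and 6.62 in the 48 h controls and 10.42, 9.94 and 10.80 in healthy plants. The groups were far apart, by 4.09 (SE 0.37, adjusted p = 7.8e-06), or 17.1-fold, and psbT differed by 4.05 (SE 0.48, adjusted p = 6.1e-05). psbB followed at 3.92 (SE 0.55, adjusted p = 0.00022), ycf4 at 3.47, ycf3 at 3.38 and ndhH at 3.36. psbA was higher by 1.52 (SE 0.22, adjusted p = 0.00028) and rbcL by 2.18 (SE 0.52, adjusted p = 0.0071). The genes read mainly by the nucleus-encoded polymerase, which are rpoB, rpoC1, rpoC2 and accD, were called in 4 of 4 cases, with a median of 2.25. ycf2, which also belongs to this class but has 2 genomic copies, was at 0.82 (adjusted p = 0.12). Of the 4 called genes, rpoB, rpoC1 and rpoC2 lie in the same operon, and most of all the chloroplast-encoded genes were called in this comparison.

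In a few genes the levels were close. rpoA, the alpha subunit of the polymerase, read 9.95 and 9.59 in the 24 h controls, 10.03, 9.76 and 10.55 in the 48 h controls and 9.88, 9.20 and 10.03 in healthy plants, with overlap and a difference of -0.24 (SE 0.36, adjusted p = 0.67). psbM, a small subunit of photosystem II, differed by -0.08 (SE 0.18, adjusted p = 0.79) and rps14 by 0.14 (SE 0.29, adjusted p = 0.76). atpB, the beta subunit of the ATP synthase, was higher by 0.62 (SE 0.14, adjusted p = 0.0043), below the 2-fold limit of a call. Complex by complex the medians ran from 2.18 for rbcL, 2.12 for photosystem I and 2.11 for the ATP synthase to 1.2 for the ribosome and 1.07 for the other proteins.

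Within several operons the difference became smaller from the first gene to the last. In the psbB operon it was 3.92 for psbB, 4.05 for psbT, 2.28 for psbH, 1.23 for petB and 0.70 for petD. In the psaA operon it was 3.23 for psaA, 0.93 for psaB and 0.14 for rps14, and in the psbD operon 4.09 for psbD, 2.05 for psbC and 1.48 for psbZ. The atpB operon, from 0.62 for atpB to 0.52 for atpE, and the psbK operon, from 0.74 for psbK to 0.66 for psbI, differed little between their genes. Others had no such order: the rpoB operon read 1.71 for rpoB, 1.43 for rpoC1 and 2.79 for rpoC2, the ndhC operon ran from 0.49 for ndhC to 1.64 for ndhK and 1.74 for ndhJ, the atpI operon from 2.72 for rps2 over 2.02, 2.75 and 3.32 for atpI, atpH and atpF to 2.19 for atpA, and the psbE operon stayed between 0.82 and 1.21. The measured genes of the rpl23 operon lay between -0.24 for rpoA, the last, and 3.36 for rpl14. In the ndhH operon the first gene, rps15, was at 1.85, ndhH at 3.36 and the genes after ndhH between 0.76 and 2.05. Operons were compared after the values had been seen, with no test, and the change had little relation to gene length (r = 0.22, rho = 0.19, n = 69).

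**Figure D4:**
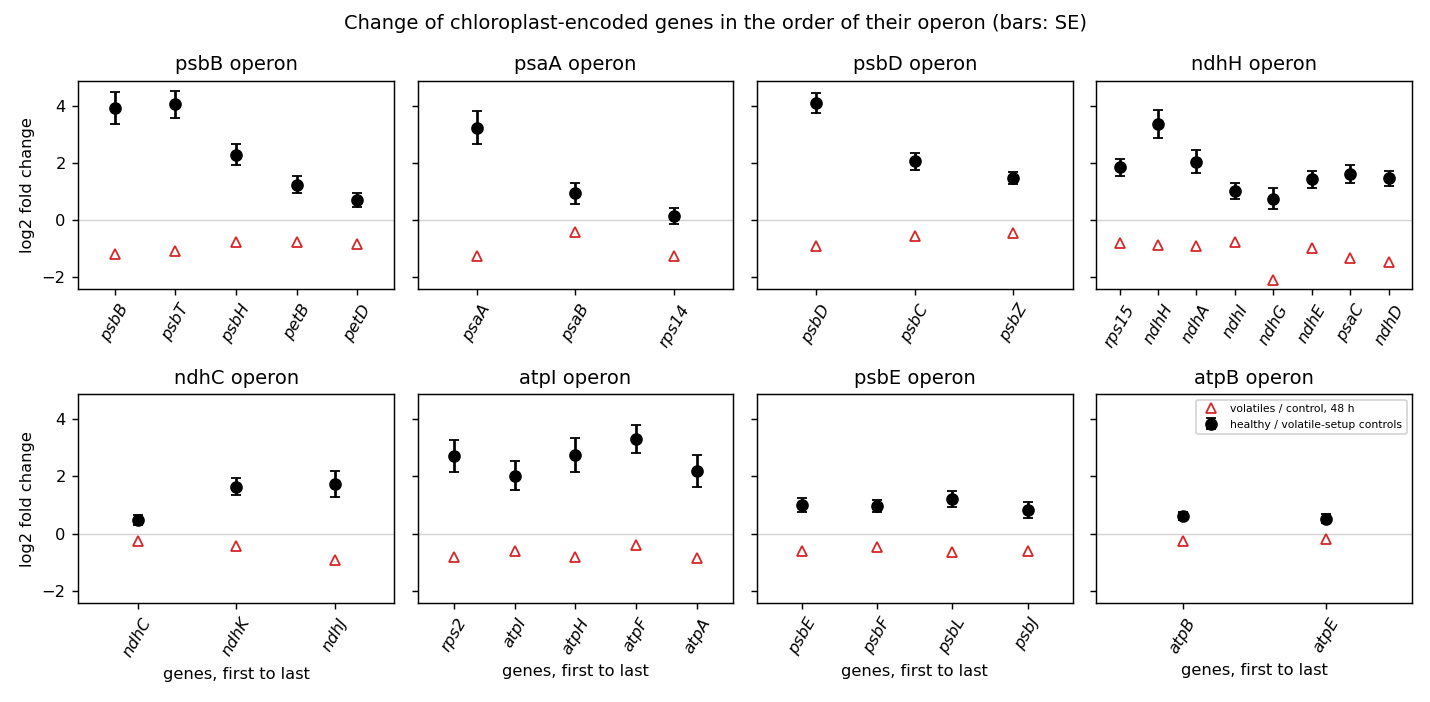
Log2 fold change (y axis) of the genes of 8 plastid operons in their order of transcription (x axis), as black points with SE for healthy plants against the controls of the volatile experiment and as red triangles for volatiles against control at 48 h. The former falls from 3.92 to 0.70 along the psbB operon and from 4.09 to 1.48 along the psbD operon, and rises from 0.49 to 1.74 along the ndhC operon.

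The 48 h volatile response had another layout along the ndhH operon, where both calls of that comparison lay. All 8 of its genes were below 0, and the last 4 in order of transcription, ndhG, ndhE, psaC and ndhD, were at -2.08, -0.97, -1.32 and -1.46, below the -0.81, -0.87, -0.89 and -0.75 of rps15, ndhH, ndhA and ndhI before them. Of these 8 genes 6 had an unadjusted p under 0.05, against 13.2% of all probe sets, in an operon singled out after its values were seen. Overlapping transcripts of such an operon share sequence, so its genes are not independent measurements.

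The 24 h volatile samples differed from each other more in the members that also differed more between the experiments. Across the 69 probe sets the difference of the first minus the second 24 h volatile sample and the difference of healthy plants minus controls, which share no arrays, had r = 0.51 and rho = 0.53. The same replicate difference was also related to the other responses. With the feeding response it had r = -0.45 and rho = -0.46. With the 48 h volatile response it had r = -0.24 and rho = -0.36, again with no array in common. The feeding response shares the healthy arrays with the difference between the experiments, in the opposite direction. The 48 h volatile response shares the 48 h controls with it. These relations are thus not separate from each other. rpoA, psbM and rps14 were near 0 between healthy plants and controls and at 0.31, 0.42 and 0.33 between the replicates, while psbN was at 3.83 between the replicates and at 1.76 between healthy plants and controls. These relations are a description over 69 genes, which share operons and arrays.

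**Figure D5:**
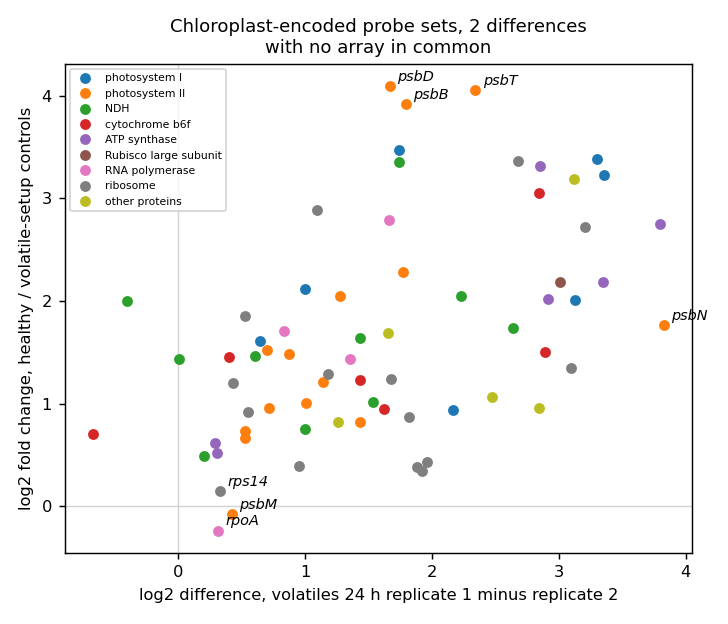
Each point is 1 of 69 chloroplast-encoded probe sets, coloured by complex, with the log2 difference of 24 h volatile replicate 1 minus replicate 2 on the x axis and the log2 fold change of healthy plants over the controls of the volatile experiment on the y axis. Nearly all points lie to the right of 0 and above 0, with r = 0.51 and rho = 0.53, and rpoA, psbM and rps14 lie near the origin.

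Other features of the arrays moved with this difference. In healthy plants against the same controls, 12 of 23 mitochondria-encoded probe sets were called higher and 0 lower, with a median of 1.17, whereas the 15 nuclear photosynthesis probe sets had a median of 0.23 that turned to -0.19 after quantile normalization, with 2 called higher. The mitochondria-encoded signals were low, with array medians of 2.54 to 3.49 in the volatile experiment. Only 4 of the 23 had a mean level at or above the median of all probe sets. Their matR was below a signal of 1 on all 10 arrays of the volatile experiment, and several of the 23 belong to nad1. The 3' minus 5' log2 difference of the actin control was 3.66 to 4.72 on the arrays of the volatile experiment and 2.52 to 3.11 on those of the feeding experiment, without overlap. That of a second actin control was 1.06 to 1.59 and 0.81 to 1.32, and that of the GAPDH control 0.03 to 0.75 and -0.08 to 0.25, with overlap. The 3' minus middle difference of ubiquitin lay the other way, at 1.2 to 1.75 and 1.96 to 2.54, without overlap. Their part in the result was not tested.

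Markers of other cells were few on the array with a single annotated gene: 2 of 5 guard cell, 1 of 4 trichome, 1 of 5 root, 0 of 4 phloem and 0 of 5 flower markers. PYK10, whose group means are given above, differed by -3.54 between healthy plants and the controls of the volatile experiment and was higher by 3.18 with feeding. TRY, a regulator of trichome spacing, had means between 1.65 and 1.92 in the volatile experiment, 4.92 in healthy and 4.08 in fed plants. The guard cell markers FAMA and GC1 differed between healthy plants and controls by 0.61 and 0.01, and GC1 fell by 1.3 with feeding. The part of these in the levels of the chloroplast-encoded genes was not tested.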

How the data were processed

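The deposited values are MAS5 intensity signals on a linear scale, computed by the authors, 1 column for each of the 16 arrays. To what target MAS5 scaled each array, and whether a normalization described in the methods had been applied to these values, are not given in the sources used here. Of 22810 probe sets 64 controls were left out. Signals under 1 were set to 1, log2 was taken, and limma 3.58.1 in R 4.3.3 fitted 6 group means with a variance trend (Benjamini-Hochberg adjustment within each comparison over all 22746 probe sets). Fold changes are group differences on that scale, SE is moderated, and precision is limited by how few arrays each group has. The SAM test of the methods was not run.

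Probe sets were named from the platform annotation (13513 with 1 gene, 503 with several, 8730 not listed), and RefSeq's TAIR10.1 gave plastid gene symbols and gene order. Mitochondria-encoded probe sets were those with 1 gene of a mitochondrial symbol (23 probe sets, 16 genes). The named genes are the called ones, those with the highest mean signal and the lowest and highest change of each complex at 48 h and with feeding, psbA and rbcL, and up to 4 of each other list. Others are marked in the text or are given as members of an operon, as neighbours of a named gene or in a list of calls. The members and lists were chosen with earlier results of these data known. Alternatives were quantile normalization, median scaling, a larger offset (log2 of value plus 16), only the upper 60% by mean signal, fits on a comparison's own arrays, a replicate block, no variance trend and leaving out each array. The model was tested on simulated data in which probe sets varied independently and with the same SD in all groups. The chloroplast-encoded genes did neither, so the simulation cannot show how the joint fit treats them.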

Additional observations from a re-analysis of the deposited data

Results flagged for a closer look

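In 2 genes the responses to feeding and to 48 h of volatiles differed by limma's test of the difference itself (adjusted p at most 0.05 and at least 2-fold). The feeding response of ndhG exceeded its volatile response by 1.95 (adjusted p = 0.034), and that of rps14 by 1.88 (adjusted p = 0.014). With log2 of the value plus 16, which damps low signals, these were 1.03 and 0.71, the latter under 2-fold. In both, every 48 h volatile array lay below every 48 h control array. No group had 4 or more arrays, so single arrays were not tested as outliers.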

How the results depend on the processing

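The median change at 24 h, 0.16, turned to -0.15 with quantile normalization and with median scaling, to -0.02 without control sample 2 and to -0.62 without volatile sample 1 (range over the 4 samples left out in turn -0.62 to 0.87, with 0 to 1 called higher, ccsA without volatile sample 2). At 48 h the 2 calls became 4 with either scaling, 3 among the upper 60%, 1 with log2 of the value plus 16 or no variance trend, 0 with the comparison's own arrays, and 0 to 1 with 1 sample left out, namely 1 without control 1, control 2 or volatile sample 2 and 0 without control 3, volatile sample 1 or volatile sample 3. The median was -0.77 to -0.37. With feeding the 0 calls became 1 with quantile normalization (ndhH) and with own arrays (ycf3), with medians of -0.35 to -0.07 when a sample was left out. For the difference between 48 h and 24 h, leaving out samples gave 0 to 4 calls and medians of -1.46 to -0.082, with -1.46 and 4 calls without 24 h volatile sample 2 and -0.082 without 24 h volatile sample 1. For feeding against volatiles the 2 calls became 3 with quantile normalization and with median scaling (ndhD added), stayed 2 among the upper 60% (ndhG and ndhD, as rps14 was not among them), and became 1 with log2 of the value plus 16 and 1 to 3 with a sample left out (1 without control 1, control 3, fed 1, fed 2, healthy 1, healthy 2 or volatile sample 3), and medians were 0.21 to 0.55. Medians between the control groups were 0.10 to 0.45. Healthy plants against these controls gave 37 to 45 calls and medians of 1.34 to 1.65. Among the changes of single named genes under each alternative, 1139 kept their side of the threshold, 23 lost and 8 gained a call, and 113 uncalled values changed sign. Most of the 1139 were uncalled values that stayed uncalled. The 23 losses were 8 for ndhD and 7 for ndhG at 48 h, and 7 for ndhG and 1 for rps14 in feeding against volatiles. In the same order, these calls were kept in 5, 6, 12 and 17 alternatives.

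The replicate numbers did not pair the arrays: same-numbered arrays had deviations correlated at -0.13 to 0.09 in the volatile and 0.02 to 0.03 in the feeding experiment. With the replicate number as a block, 0 probe sets were called at 48 h and 1 with feeding (ndhH). With 2 or 3 arrays a group, differences of several times the SE could still go uncalled by limma, as psaC did at 48 h (-1.32, SE 0.34, adjusted p = 0.098).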
